A study of Mus musculus with 10 samples.

Results

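The histone lysine demethylases are the enzymes that take methyl groups off lysines of histone tails. Of the 24421 genes listed in the expression table, 10 were taken by symbol: Kdm1a, Kdm2a, Kdm2b, Kdm3a, Kdm3b, Kdm4a, Kdm4b, Kdm4c, Kdm5b and Kdm6b. All 10 were among the 15081 genes that averaged 0.5 CPM or more (CPM, reads per 1000000 reads counted on genes), so no demethylase was lost to the filter on low values. RNA came from the ventral hippocampus (vHpc) of female C57BL/6 mice, all ovariectomized (OVX) and left to recover for 2 weeks. WT mice and mice heterozygous for the BDNF Met allele (BDNF Met/+, here Het-Met) then drank either 17β-estradiol (E2, 300 nM or 0.7 µg per day, in 0.1% ethanol) or the 0.1% ethanol vehicle for 6 weeks. Each WT group, vehicle or E2, held 2 libraries and each Het-Met group 3, and a library pooled RNA from 2 animals. Ovary-intact mice and a Met/Met genotype were not analysed here, so every group shared the loss of the ovaries.

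Lysine methylation of histones is reversible, and the demethylases fall into families by the marks they remove. KDM1A (LSD1) is a flavin-dependent oxidase that works with the CoREST complex on mono- and dimethylated H3K4, and a neuronal splice form of it is known. The other enzymes carry a JmjC domain and need iron, oxygen and 2-oxoglutarate: KDM2A and KDM2B act on H3K36, KDM3A and KDM3B on H3K9, KDM4A, KDM4B and KDM4C on H3K9 and H3K36, KDM5B on H3K4 and KDM6B (JMJD3) on H3K27. Several are known from hormone and oxygen signalling in other cells: KDM1A and KDM4B are cofactors of estrogen receptor alpha in breast cancer cells, and Kdm3a is induced by hypoxia.

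The libraries held between 19820184 and 23267410 reads counted on genes. A demethylase was covered by 395 to 2971 reads in a single library, the fewest for Kdm2b and the most for Kdm2a, which leaves a counting error of 1.95% (Kdm2a) to 4.78% (Kdm2b) of the value. The 8 neuronal markers summed to between 7979 and 8873 CPM and the 7 markers of CA pyramidal cells to between 963 and 1072 CPM, so transcripts of both were present in every library. The 14 markers of choroid plexus, a neighbouring tissue, were uneven: they summed to 158 and 1115 CPM in the vehicle-treated WT libraries, 1972 and 2623 CPM in E2-treated WT, 1503 to 3315 CPM in vehicle-treated Het-Met and 276 to 1607 CPM in E2-treated Het-Met. The 8 markers of ependyma (21.2 to 22.5 CPM in vehicle-treated and 38.0 to 40.4 in E2-treated WT, 28.3 to 35.2 in vehicle-treated and 23.0 to 29.2 in E2-treated Het-Met) and the 8 of meninges (294 to 323, 424 to 438, 368 to 429 and 306 to 366 CPM in the same order) were uneven too, and the 7 pituitary markers ran from 2.42 to 210 CPM over the libraries. The 6 markers of dentate gyrus granule cells summed to 303 to 313 CPM in vehicle-treated and 329 in E2-treated WT. In Het-Met they summed to 305 to 446 CPM under vehicle and 312 to 366 under E2. The 8 markers of thalamus ran from 230 to 304 CPM over the libraries and the 8 of microglia from 379 to 449. Whether those tissues and cells had a part in the demethylase values below was not tested. In a whole-tissue extract, fewer cells of a type and less RNA per cell cannot be told apart.

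Kdm2a, an H3K36 demethylase with a CXXC zinc finger that binds unmethylated CpG DNA (chr19:4314419-4398285, minus strand, mm10 as in all positions here), had the highest CPM, with a mean of 123 ± 6.50 CPM (SD, n = 10 libraries). Kdm2b, its relative that brings the PRC1.1 Polycomb complex to CpG islands (chr5:122870665-122989823, minus strand), had the lowest, with 20.6 ± 1.41 CPM. Because long transcripts collect more reads, levels were compared between genes as CPM per kb of exon. The length is the union of all annotated exons, not that of the transcripts present here, and the order depends on it. On that scale Kdm4b led with 16.4 ± 1.05 CPM per kb, above every library of the next gene, Kdm1a (11.7 ± 0.845 CPM per kb). Kdm1a and Kdm4a (11.0 ± 0.387 CPM per kb) could not be ordered, since Kdm1a was the higher in 6 of 10 libraries. Kdm2a followed with 8.52 ± 0.450 CPM per kb, below Kdm4a in 10 of 10 libraries. A middle stretch then held Kdm6b with 7.23, Kdm3a with 6.26, Kdm4c with 5.81, Kdm3b with 5.37 and Kdm5b with 4.43 CPM per kb, where the ranges of each pair of neighbours overlapped. Kdm2b was lowest on this scale too, at 1.89 ± 0.130 CPM per kb, and its highest library (2.09) lay under the lowest of Kdm5b (4.27).

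**Figure D1:**
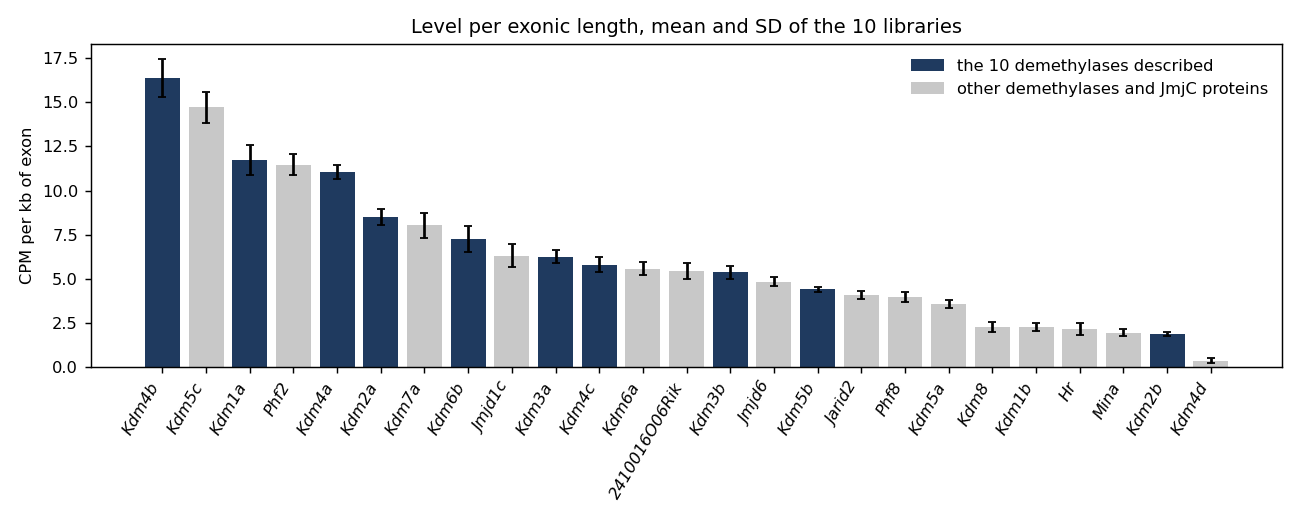
Mean level of each demethylase over the 10 libraries, as CPM per kb of exon, with the SD as error bars; dark bars are the 10 genes described and grey bars the 15 other demethylases and JmjC proteins that passed the filter. Kdm4b leads at 16.4 CPM per kb and Kdm2b is the lowest dark bar at 1.89.

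Within families, the partner that was highest per length differed. Of the H3K4 demethylases of the KDM5 family, Kdm5b (4.43 CPM per kb) stood between the X-linked Kdm5c (14.7 ± 0.869 CPM per kb) and Kdm5a (3.58 ± 0.209 CPM per kb). Of the H3K27 demethylases, Kdm6b (7.23 ± 0.737 CPM per kb) stood above Kdm6a (5.59 ± 0.381 CPM per kb). Kdm1a stood above its paralog Kdm1b (2.29 ± 0.219 CPM per kb), and Kdm4a, Kdm4b and Kdm4c stood above Kdm4d (0.378 ± 0.145 CPM per kb). The Y-linked Kdm5d and Uty had 0 reads in all 10 libraries of these female mice, which allows up to 0.151 CPM in the shallowest library (3 reads).

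RefSeq (GRCm38.p6) gave promoter windows for 6 of the 10 genes, Kdm1a, Kdm2b, Kdm3a, Kdm4a, Kdm4c and Kdm5b, with 12 start sites between them. The 250 bases before each start were searched on both strands for GGTCANNNTGACC (the palindromic estrogen response element), GGTCA (a single arm of it) and ACGTG (the core that hypoxia-inducible factors read, also part of the CACGTG E-box). The palindrome was in 0 of these 12 windows and in 0.0639% of all 32851 windows. The single arm is common, in 35.2% of all windows, and was in 4 of the 12, before Kdm1a, Kdm2b and both starts of Kdm4c. ACGTG was in 16.6% of all windows and in 2 of the 12. The windows printed here, 5′ to 3′ with GGTCA and ACGTG matches in capitals, are those of the gene with the most positive genotype difference (Kdm1a), of the gene whose WT and Het-Met libraries did not overlap (Kdm5b), and of the start with the most matches (Kdm4c).
Kdm1a, chr4:136602724-136602973, minus strand: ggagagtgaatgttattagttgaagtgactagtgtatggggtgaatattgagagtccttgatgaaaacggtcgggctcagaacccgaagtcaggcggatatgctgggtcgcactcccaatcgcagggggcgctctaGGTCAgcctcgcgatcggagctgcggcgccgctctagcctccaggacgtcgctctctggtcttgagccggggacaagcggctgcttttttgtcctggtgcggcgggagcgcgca
Kdm5b, chr1:134559928-134560177, plus strand: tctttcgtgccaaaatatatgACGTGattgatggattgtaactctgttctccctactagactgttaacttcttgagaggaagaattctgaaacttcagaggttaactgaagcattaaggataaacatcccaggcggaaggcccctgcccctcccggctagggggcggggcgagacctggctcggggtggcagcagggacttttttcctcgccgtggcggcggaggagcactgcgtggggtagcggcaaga
Kdm4c, chr4:74251629-74251878, plus strand: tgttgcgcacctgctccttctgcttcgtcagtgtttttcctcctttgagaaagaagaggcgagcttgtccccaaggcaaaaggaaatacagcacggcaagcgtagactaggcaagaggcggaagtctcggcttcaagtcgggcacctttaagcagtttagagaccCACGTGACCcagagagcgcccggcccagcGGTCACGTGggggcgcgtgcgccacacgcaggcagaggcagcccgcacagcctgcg
The Kdm1a window holds 1 GGTCA and no ACGTG, and the Kdm5b window 1 ACGTG and no GGTCA. In the Kdm4c window the letters CACGTG occur at 2 places, each read as ACGTG on both strands and each overlapping a GGTCA match, which gives 4 and 2 matches. A match is a string of letters in a window, and no binding was measured here.

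The demethylase transcripts varied little between libraries. Over the 10 libraries the highest value of a gene was between 1.11 times (Kdm4a) and 1.38 times (Kdm6b) its lowest. Coefficients of variation ran from 3.26% for Kdm5b and 3.51% for Kdm4a to 10.2% for Kdm6b, against a median of 7.60% (quartiles 5.85% and 9.86%) over the 7471 genes of 15 to 150 CPM. Kdm5b and Kdm4a varied little more than their counting errors of 2.53% and 2.71%. Summed over the 10 genes, the level was 647 ± 12.4 CPM in vehicle-treated WT (n = 2), 639 ± 24.9 in E2-treated WT (n = 2), 617 ± 25.4 in vehicle-treated Het-Met (n = 3) and 636 ± 8.03 in E2-treated Het-Met mice (n = 3).

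**Figure D2:**
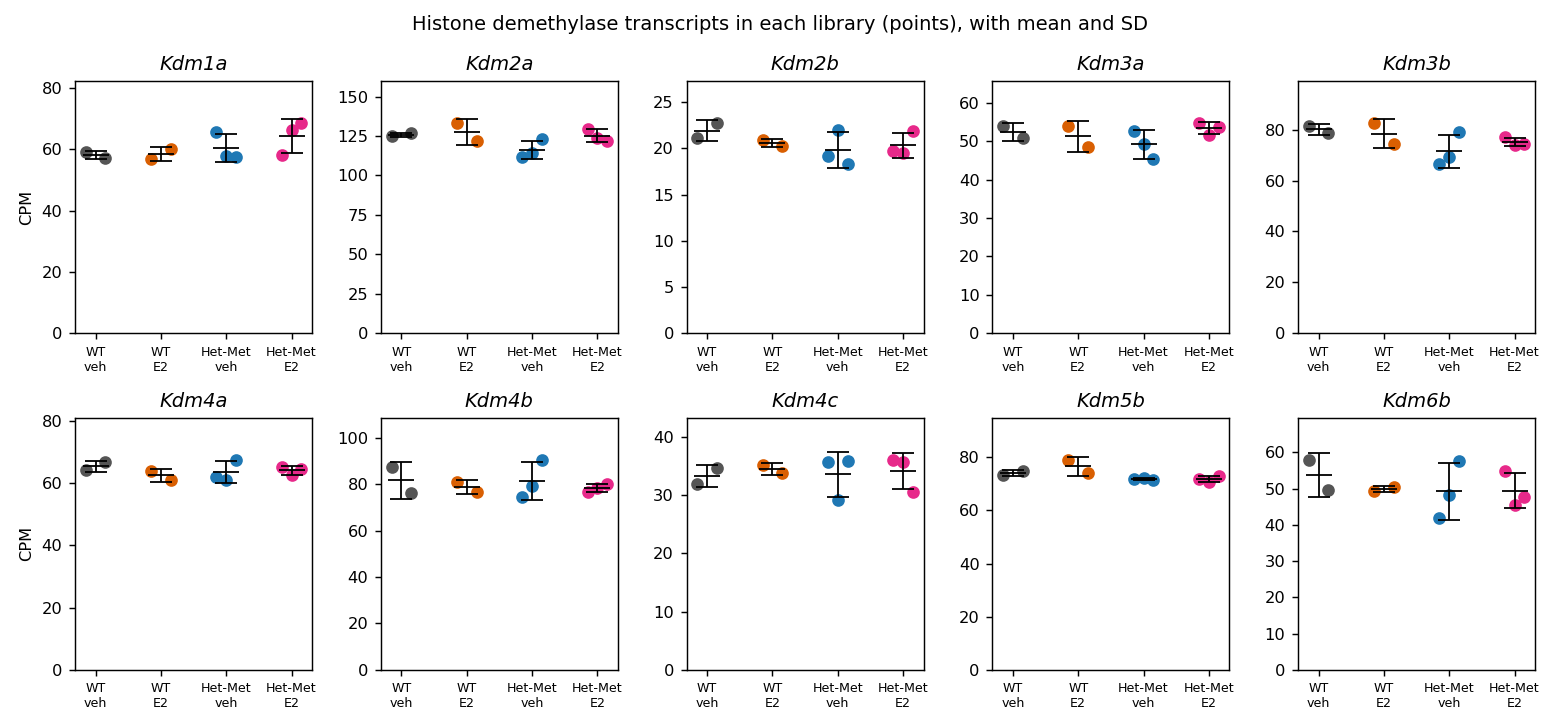
CPM of each demethylase in every library (points, replicates from left to right), with the group mean and SD in black, on axes that start at 0. Most groups overlap, and for Kdm5b the 6 Het-Met libraries (70.8 to 72.9 CPM) lie under the 4 WT libraries (73.2 to 79.1 CPM).

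The first question was whether E2 add-back changed the demethylase transcripts. No demethylase was called (limma, Benjamini-Hochberg adjusted p under 0.05 over all genes and a fold change above 1.3) in OVX WT mice or in OVX Het-Met mice: 0 of 10 in WT, where 0.0133% of all genes were called, and 0 of 10 in Het-Met, where 0% were. At an unadjusted p under 0.05 the counts were again 0 and 0 of 10, against 4.04% and 5.45% of all genes. On the recovered reads edgeR and DESeq2 also called 0 of 10 in both. Over all 15081 genes edgeR called 2 in WT and 0 in Het-Met, and DESeq2 called 14 and 6. The log2 fold changes ran from -0.10 (Kdm6b) to 0.05 (Kdm4c) in WT, with a median of -0.03 against 0.00 over all genes. That median was -0.09 without E2-treated WT replicate 1 and 0.02 without replicate 2, so its sign rests on single libraries. In Het-Met they ran from -0.05 (Kdm4b) to 0.12 (Kdm3a), with a median of 0.03 against 0.00. In OVX Het-Met mice, 8 of 10 values were above 0, against 51.8% of all genes, and in OVX WT mice 4 of 10, against 49.0%. The Het-Met count was 6 of 10 without E2-treated Het-Met replicate 1, and also without vehicle-treated Het-Met replicate 1. With each library's trend with gene length removed it was 7 of 10, and the Het-Met median was 0.01.

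The intervals show how large a change these data leave room for. The 95% confidence interval lay wholly within a 1.3-fold change in either direction for 9 of 10 demethylases in WT and for 10 of 10 in Het-Met, against 81.0% and 90.7% of the genes of 15 to 150 CPM. The exception was Kdm6b, whose interval in WT reached down to 0.768-fold. Its log2 fold change there ran from -0.22 to 0.01 as single libraries were left out. Averaged over both genotypes, the E2 effect called 0 of 10 (0.00663% of all genes), 0 of 10 had an unadjusted p under 0.05 (3.22%), and all 10 intervals lay between 0.856-fold and 1.147-fold. Of the genes of 15 to 150 CPM, 97.8% had an interval within 1.3-fold there.

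Kdm2a, the highest by CPM, had 125 and 127 CPM in the vehicle-treated WT libraries, 133 and 122 in E2-treated WT, 111, 114 and 123 in vehicle-treated Het-Met, and 130, 124 and 122 in E2-treated Het-Met mice. The E2 and vehicle libraries of either genotype overlapped. Its log2 fold change with E2 was 0.02 ± 0.08 (SE) in WT and 0.11 ± 0.06 in Het-Met (limma adjusted p = 0.931). Kdm2b, the lowest, had 21.1 and 22.7 CPM in the vehicle-treated WT libraries, 20.9 and 20.3 in E2-treated WT, 19.2, 22.0 and 18.3 in vehicle-treated Het-Met, and 19.7, 19.5 and 21.9 in E2-treated Het-Met mice. Its E2-treated WT libraries lay under the vehicle-treated ones, by less than 1 counting error of a library, as did those of Kdm4a (63.9 and 61.0 against 64.2 and 66.7 CPM). In that comparison of 2 with 2 libraries, 16.2% of all genes had lower, non-overlapping E2 libraries.

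**Figure D3:**
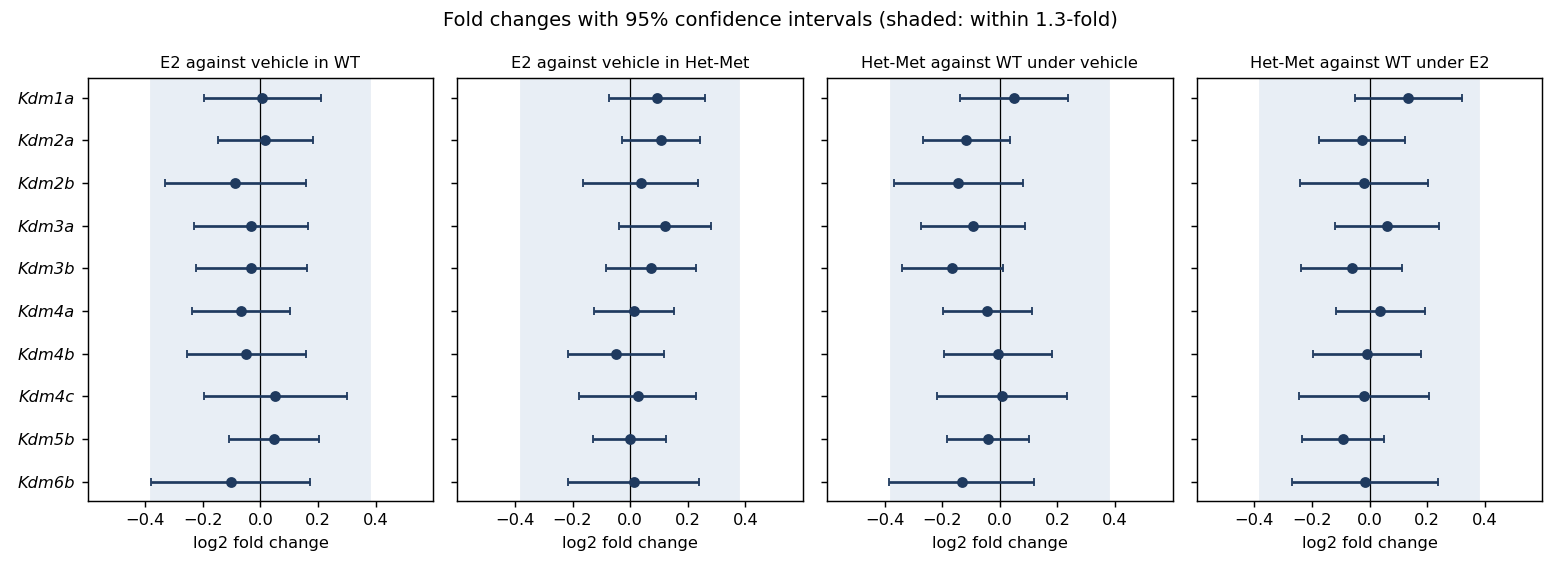
log2 fold change of each demethylase (point) with its 95% confidence interval (line) from limma in the 4 comparisons between groups; the shaded band is a change of less than 1.3-fold. Every interval crosses 0, and those of Kdm6b in E2-treated against vehicle-treated WT and in Het-Met against WT under vehicle leave or touch the band.

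The second question was whether the genotypes differed under each treatment. Under vehicle, 0 of 10 demethylases were called (0.00663% of all genes) and 0 of 10 had an unadjusted p under 0.05 (10.7% of all genes). Under E2, 0 of 10 were called (0.0265%) and 0 of 10 had an unadjusted p under 0.05 (11.7%). edgeR and DESeq2 called 0 of 10 in both. Over all 15081 genes edgeR called 1 under vehicle and 14 under E2, and DESeq2 called 34 and 29. The median log2 difference, Het-Met minus WT, was -0.07 under vehicle and -0.02 under E2, against 0.02 and 0.03 over all genes. Under vehicle 8 of 10 values were below 0, where 44.7% of all genes were, and over both treatments 9 of 10, where 42.7% were. With each library's trend with gene length removed, 7 of 10 were below 0 under vehicle and 6 of 10 over both treatments, and the medians were -0.03 under vehicle, 0.02 under E2 and -0.01 over both. The median also depended on E2-treated WT replicate 1, without which it was 0.02 under E2 and -0.01 over both treatments, where 5 of 10 values were then below 0. The genes of long transcripts as a whole also lay below 0 in these comparisons (given with the lengths below). The intervals lay within 1.3-fold for 9 of 10 genes under vehicle (Kdm6b reached 0.766-fold) and 10 of 10 under E2 and over both treatments. Of the genes of 15 to 150 CPM, 76.1% did so under vehicle, 75.6% under E2 and 92.0% over both treatments.

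Kdm3b, Kdm1a and Kdm5b are given by library because of their values, a choice made after those were seen. Kdm3b, an H3K9 demethylase (chr18:34777047-34838660, plus strand), had 81.6 and 78.7 CPM in vehicle-treated WT, 82.6 and 74.4 in E2-treated WT, 66.4, 69.4 and 78.9 in vehicle-treated Het-Met, and 77.0, 74.0 and 74.3 in E2-treated Het-Met mice. Het-Met replicates 1 and 2 under vehicle were the lowest of the 10 libraries, and replicate 3 was within the WT range. The log2 difference under vehicle was -0.17 ± 0.08 (limma unadjusted p = 0.0618, adjusted p = 0.483), the smallest unadjusted p of all 70 tests of demethylases. Over both treatments it was -0.11 ± 0.06 (limma adjusted p = 0.339), and it ran from -0.15 to -0.08 as single libraries were left out.

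Kdm1a (chr4:136550540-136602723, minus strand) had the most positive genotype difference. It had 59.1 and 57.3 CPM in vehicle-treated WT, 56.8 and 60.2 in E2-treated WT, 65.7, 57.9 and 57.5 in vehicle-treated Het-Met, and 58.3, 66.2 and 68.6 in E2-treated Het-Met mice. The 3 highest libraries were all Het-Met, 1 under vehicle and 2 under E2, and the other 3 Het-Met libraries shared the WT range. Under E2 the log2 difference was 0.13 ± 0.09 (limma adjusted p = 0.559), with an interval from -0.05 to 0.32.

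Kdm5b, an H3K4 demethylase (chr1:134560171-134635285, plus strand), had 73.2 and 75.0 CPM in vehicle-treated WT, 79.1 and 74.1 in E2-treated WT, 72.0, 72.3 and 71.6 in vehicle-treated Het-Met, and 72.0, 70.8 and 72.9 in E2-treated Het-Met mice. Every Het-Met library lay below every WT library, as did those of 1.72% of all genes. The nearest libraries of the 2 genotypes differed by 0.3 CPM, less than the counting error of 2.53% of either. An exact two-sided permutation of the genotype labels within each treatment (100 arrangements) gave p = 0.01, the smallest it can give, for a log2 difference of -0.07. Libraries without overlap give the largest possible difference in their direction, so this p restates the lack of overlap. Of all genes, 3.44% reached that p, and adjusted over all genes it was 0.282. The moderated limma test of the same difference gave an unadjusted p of 0.181 and an adjusted p of 0.496. By the permutation the other 9 genes had p from 0.12 (Kdm2a and Kdm3b) to 0.98 (Kdm4c). Among the vehicle libraries alone, those of Kdm2a and Kdm5b did not overlap between genotypes and were lower in Het-Met, as for 9.89% of all genes, and among the E2 libraries alone those of Kdm5b, as for 14.7%.

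The genotype differences ran with transcript length. The 10 genes have exonic lengths of 4895 (Kdm4b) to 16555 bases (Kdm5b), and 6 of them exceed 6 kb, where the median gene tested has 4434. Over both treatments the median log2 difference, Het-Met minus WT, was -0.04 for the 4761 genes of 6 kb or more and 0.12 for the 1976 genes of 2 kb or less, and that of the demethylases was -0.04. By library, long minus short genes deviated by 0.04 to 0.14 in the 4 WT libraries and by -0.23 to 0.01 in the 6 Het-Met libraries, lowest in vehicle-treated Het-Met replicate 1. Once the length trend of each library was removed, an alternative added for the permutation after the data were seen, the difference of Kdm5b over both treatments was 0.04 (exact permutation p = 0.21), that of Kdm2a 0.02 and that of Kdm3b -0.02, so that the first 2 turned sign. Kdm1a, which is shorter, kept 0.08 of its 0.09. What makes long and short genes deviate in these libraries was not tested, and the trend and the genotype cannot be told apart.

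**Figure D4:**
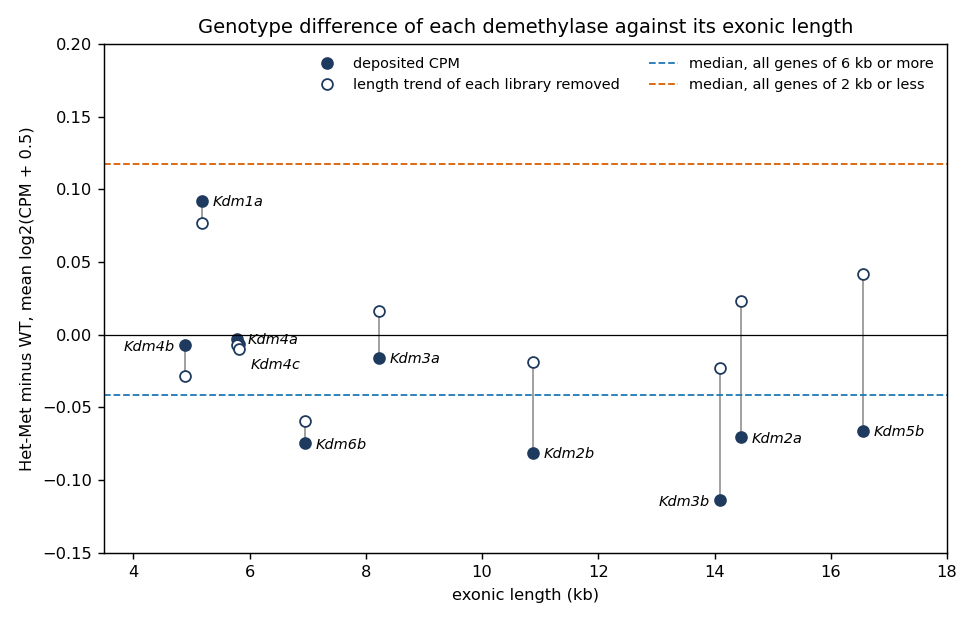
Het-Met minus WT difference of mean log2(CPM + 0.5) over both treatments (y axis) against exonic length in kb (x axis), for each demethylase on the deposited CPM (filled) and after removal of each library's length trend (open); dashed lines are the medians of all long and all short genes. The 4 demethylases over 10 kb move up by about 0.06 to 0.11, and Kdm2a, Kdm5b and, by less, Kdm3a cross 0.

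The third question was whether the E2 response depended on genotype. The interaction called 0 of 10 demethylases (0.0729% of all genes), and 0 of 10 had an unadjusted p under 0.05 (5.42%). Its median was 0.09 on the log2 scale, against 0.01 over all genes, and 7 of 10 values were above 0, against 51.4% of all genes. It was highest for Kdm3a, the hypoxia-responsive H3K9 demethylase, at 0.15 ± 0.12 (limma adjusted p = 1.00). The interaction is the least precise of the comparisons: 7 of 10 intervals lay within 1.3-fold, and that of Kdm6b reached 1.39-fold. Of the genes of 15 to 150 CPM, 50.85% had an interval within 1.3-fold. Averaged over both treatments, the genotype effect called 0 of 10 (0.0265%), and 0 of 10 had an unadjusted p under 0.05 (16.6% of all genes).

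Among the 45 pairs of demethylases, the median Pearson r over the 10 libraries was 0.11, and 1 pair passed the test. Kdm2a and Kdm3b had r = 0.90 (permutation p = 0.00093, Benjamini-Hochberg adjusted over the pairs 0.0418) and Spearman rho = 0.78 (permutation p = 0.0106, adjusted 0.274). Without the 2 libraries farthest from the median of Kdm2a it was 0.74, and within groups, after the group means were subtracted, 0.92. Their exonic lengths are 14446 and 14095 bases, and both were lowest in vehicle-treated Het-Met replicate 1. Kdm2b and Kdm4c ran opposite (r = -0.67, permutation p = 0.0361, adjusted 0.407). Among the genes most like the mean standardised profile of the 10, out of 15071 others, were Nsd1 (r = 0.90 over 10 libraries), Bach2 (0.89), Rcor1 (0.89) and Mlxip (0.88). They are from the top of a ranking of all those genes, and whether such r exceed chance was not tested. Of the demethylases themselves, Kdm3b (0.94) and Kdm2a (0.90) had the highest r with that profile, of which each is a part, and Kdm1a the lowest (-0.35).

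The demethylases were set beside the genes that share their marks, complexes or cofactors, and none of those was called in any comparison. Of the 15 other demethylases and JmjC proteins tested, 3 were lower in Het-Met under vehicle at an unadjusted p under 0.05, where 10.7% of all genes moved in either direction. Hr (Hairless), an H3K9 demethylase and nuclear receptor corepressor, had 18.7 and 16.4 CPM in vehicle-treated WT, 14.8 and 14.2 in E2-treated WT, 10.5, 11.6 and 15.5 in vehicle-treated Het-Met, and 15.8, 15.4 and 16.4 in E2-treated Het-Met mice. Its vehicle-treated Het-Met libraries lay under the vehicle-treated WT ones, with a log2 difference of -0.48 (limma unadjusted p = 0.00353), and its interaction was 0.61 (unadjusted p = 0.00766, adjusted p = 0.549). Jmjd1c, also called KDM3C, differed by -0.25 and Jarid2, a partner of the PRC2 complex without demethylase activity, by -0.17. Over both treatments Jmjd1c (-0.21), Kdm7a (-0.17) and Kdm5c (-0.11), 3 of 15, had an unadjusted p under 0.05, where 16.6% of all genes did. Exonic lengths are 6.9 kb for Hr, 17.8 for Jmjd1c, 9.7 for Jarid2, 10.1 for Kdm7a and 7.1 for Kdm5c. The trend with gene length was not removed from the values of these genes.

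At an unadjusted p under 0.05, the limit for every gene named here, the shares of all genes in either direction were 10.7% for Het-Met against WT under vehicle, 11.7% under E2 and 16.6% over both treatments. The trend with gene length was not removed from the values of the listed genes, and the enzyme activity of their products was not measured. Of 11 CoREST partners of KDM1A, 1 reached that p under vehicle, the CoREST scaffold Rcor1 (log2 difference -0.26), and 2 under E2, the deacetylase Hdac1 (0.37) and Hmg20b (0.27). Over both treatments 1 was higher at that p, Hmg20b (0.20), and 1 lower, Rcor1 (-0.21). Of the 9 PRC1.1 partners of KDM2B, 0 reached it in any comparison. Of 12 genes listed as H3K4 methyltransferases, 3 reached it under vehicle, Kmt2e (-0.31), Kmt2a (-0.34) and Kmt2c (-0.21). The mark of this class is the one that KDM1A and KDM5B remove. Under E2 1 reached it, Setd7 (-0.21), and over both treatments 5, all with values below 0 (adjusted p from 0.186 to 0.298). For the interaction 1 did, Kmt2e (0.29, adjusted p = 0.867), where 5.42% of all genes did. Of 7 genes listed as H3K36 methyltransferases, 1 reached it under vehicle, Smyd2 (0.18), and 3 under E2, Smyd2 (0.23), Setd3 (0.18) and Ash1l (-0.23). Over both treatments 2 did, Smyd2 (0.20, adjusted p = 0.126) and Ash1l (-0.20, adjusted p = 0.167). With E2 in Het-Met 1 did, Whsc1 (0.14), where 5.45% of all genes did. Of 7 H3K9 methyltransferases, 1 reached it over both treatments, Ehmt2 (0.10, adjusted p = 0.292), and 1 under E2, Prdm2 (-0.23, adjusted p = 0.393). Of 4 genes of the H3K27 complex, 1 reached it under vehicle, Eed (-0.30, adjusted p = 0.423). Eed also reached it with E2 in WT (-0.30), where 4.04% of all genes did. Its interaction was 0.48 (adjusted p = 0.670), where 5.42% of all genes reached the unadjusted p. Of 18 enzymes that make or use 2-oxoglutarate and related acids, 2 reached it over both treatments, Sdhb (0.15) and Sdhd (0.14), a smaller share than of all genes. Under vehicle 1 did, Ogdhl (-0.15). Of 14 hypoxia-induced genes, 1 reached it over both treatments, Bnip3 (0.27), also a smaller share than of all genes. Under E2 1 did, again Bnip3 (0.38, adjusted p = 0.329). With E2 in Het-Met 1 did, Slc2a1 (-0.22), where 5.45% of all genes did. Of 18 immediate-early genes, which report recent neuronal activity, 11 reached it under E2, all with values below 0. Among them were Egr2 (-1.45), Fosb (-0.60) and Nr4a3 (-0.27), with adjusted p from 0.314 upward. Egr2 is low, at 2.42 and 4.21 CPM in E2-treated WT and 1.57, 0.968 and 0.332 in E2-treated Het-Met libraries. Under vehicle 2 of the 18 reached it, Egr1 (-0.53) and Homer1 (-0.24), and over both treatments 9, all with values below 0. For the interaction 2 did, Egr2 (-1.27) and Fosb (-0.55). Kdm6b, known to be inducible in stimulated neurons, differed by -0.02 between the genotypes under E2, with an interval from -0.27 to 0.24.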

How the data were processed

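RNA-seq of the vHpc was analysed from 10 libraries. Per the labels and the study's methods, stranded 75-bp single-end reads were aligned to mm10 with TopHat2. The deposited values are CPM per gene symbol, which the authors made from reads counted on genes. Every value was a whole multiple of 1 read of its library (100% of values, tolerance 0.01 reads), so the reads could be recovered, with 19820184 to 23267410 per library. Counting errors and the limits of a count of 0 cover counting error only, and the 95% confidence intervals, from limma, cover the spread between libraries.

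The 10 demethylases and the gene lists beside them were chosen with earlier results of these data known. limma 3.58.1 in R 4.3.3 fitted the means of the 4 groups on log2(CPM + 0.5) for the 15081 genes averaging 0.5 CPM or more, and eBayes moderated the variances with trend=TRUE. Tests were two-sided, p-values were adjusted over all genes (Benjamini-Hochberg), and fold changes are on the log2(CPM + 0.5) scale. A call needed an adjusted p under 0.05 and a fold change above 1.3. The fit was tested on simulated data. Each demethylase was also tested by an exact permutation of genotype within treatment. Positions and exonic lengths (the union of all exons) came from GENCODE vM21, in which 23376 symbols were found, 651 more under a former name, and 394 were absent, and promoters from RefSeq GRCm38.p6. Alternatives were other pseudocounts, filters, scalings, edgeR 4.0.16, DESeq2 1.42.0, a replicate block, removal of the length trend, other thresholds and leaving out each library. Values by library were to be given for demethylases with an unadjusted p under 0.05 in any comparison, which none had, and for the highest and lowest by CPM, and listed genes were named at an unadjusted p under 0.05, at most 3 a list in each comparison, except that any of the other demethylases could be named. The labels call the libraries biological replicates of 2 pooled animals each, and libraries of a group differed by more than sampling noise (chi-square per degree of freedom 3.29 to 13.5). The genes most like the demethylases were to be the 5 with the highest Pearson r with their mean profile, of which 1 is not reported here.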

Additional observations from a re-analysis of the deposited data

Results flagged for a closer look

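In 2 of 20 sets of libraries tested (the 4 WT and the 6 Het-Met libraries of each demethylase, over both treatments), a library stood apart from the rest by Dixon's criterion at the 95% level, where chance flags about 1 in 20. Kdm6b had 58.0 CPM in vehicle-treated WT replicate 1, and the other 3 WT libraries had 49.2 to 50.4 CPM. Kdm4b had 90.7 CPM in vehicle-treated Het-Met replicate 3, and the next of the 6 Het-Met libraries had 80.3 CPM. Vehicle-treated WT replicate 1 was the highest WT library for Kdm4b too (87.3 CPM), and vehicle-treated Het-Met replicate 3 the highest Het-Met library for Kdm6b (57.6 CPM). Over the 10 libraries Kdm4b and Kdm6b had r = 0.72 (permutation p = 0.019, adjusted over the 45 pairs 0.285) and rho = 0.45 (permutation p = 0.192, adjusted 0.543), and r was 0.20 without the 2 libraries farthest from the median of Kdm4b, so the relation rests on those libraries.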

How the results depend on the processing

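The count of demethylases called was 0 in each of the 7 comparisons under every alternative run for it, the 3 other thresholds, edgeR, DESeq2 and the replicate block included. Over all genes DESeq2 called 34 (Het-Met against WT under vehicle) and 88 (over both treatments), where limma called 1 and 4. The smallest adjusted p of a demethylase in any alternative was 0.170 (Kdm3b over both treatments, without vehicle-treated Het-Met replicate 3). Its log2 difference under vehicle ran from -0.24 to -0.11 as single libraries were left out, and its unadjusted p over both treatments was 0.0389 with median-of-ratios scaling, 0.0436 with TMM, 0.0443 with edgeR and 0.0453 with DESeq2. Kdm5b over both treatments had an unadjusted p of 0.014 with no filter on low values. In all, 15 of 1510 recomputed tests of demethylases had an unadjusted p under 0.05. These are refits of the same 70 tests and depend on each other, so that share cannot be set against a chance rate. Over all 15081 genes, 266 stood at that p for E2 over both genotypes without E2-treated WT replicate 1. For the genotypes over both treatments without vehicle-treated WT replicate 1, 2978 did. Removing the length trend turned Kdm5b to 0.085 (vehicle) and 0.042 (both treatments) and Kdm2a to 0.052 (E2) and 0.023 (both treatments) in Het-Met against WT, and left 0 genes at an exact permutation p under 0.05, where 1 (Kdm5b) stood before. Without single libraries Kdm5b had a permutation p of 0.0167 or 0.025, the smallest each smaller design can give, which restates the lack of overlap in the full set. In all, 95 of 1510 recomputed values had another sign than in the main fit. For 5 values, leaving out a single library changed the sign with a shift from the full fit larger than the SE. They were Kdm4b with E2 in WT (-0.147 to 0.0495), with E2 in Het-Met (-0.112 to 0.0296) and between genotypes under vehicle (-0.105 to 0.0913), and, with E2 in Het-Met, Kdm4c (-0.0711 to 0.101) and Kdm6b (-0.0969 to 0.129). Replicate numbers did not pair the libraries, whose deviations correlated at -0.12, 0.02 and -0.07 in the 3 Het-Met pairs. With a block on them, 0 of 10 demethylases were called in each comparison. Over all 15081 genes the block called 10 with E2 in WT and 18 for the interaction, where 2 and 11 were called without it. Between the genotypes under E2 it called 2 genes, where 4 were called without it. At this depth counting alone leaves 2% to 5% error on a value, and the interaction left room for 1.39-fold (Kdm6b).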
